A study of Homo sapiens with 15 samples.

Results

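The comparison is between U87 cells labelled as carrying the short hairpin RNA 1812 and U87 control cells, with 3 RNA-seq libraries in each group. These 6 libraries were taken by their labels out of 15 in the series. U87 is an established human glioma line. The 3 control libraries have the genotype wild type, and the labels name no control hairpin or empty vector for them. The other 3 have the genotype LAMP2A knockdown and came from stably transfected cells. Neither the number of clones nor separate cultures are given for the replicates, so all p-values measure only the spread between these libraries, which may be technical. The remaining 9 libraries, of U251, a different glioma line with and without hairpins 1812 and 1813, served to estimate the spread within groups and, in the closing section, to compare the effect between lines.

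LAMP2A is the splice form of LAMP2 that acts as the lysosomal receptor of chaperone-mediated autophagy. In this pathway the chaperone HSC70 binds single cytosolic proteins that carry a KFERQ-like motif and brings them to LAMP2A, whose subunits assemble into the complex through which the substrate enters the lysosome. Glioma cells also build and remodel an extracellular matrix of glycoproteins, laminins and collagens, which they contact through integrins. The question addressed is which transcripts differ between U87 cells with and without the hairpin.

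The 3 control libraries were not alike, and this bears on every result. Total counts ranged from 14080885 to 18924072 per library. Control replicates 2 and 3 were the closest pair, with 580 genes at least 2-fold apart, whereas control replicate 1 differed 2-fold from them in 5597 and 5696 genes. Among the 3 libraries labelled hairpin 1812 the pairs differed 2-fold in 840 to 1607 genes. When libraries were compared across groups, those with the hairpin label differed 2-fold from control replicate 1 in 2011 to 2785 genes and from control replicates 2 and 3 in 3894 to 4245 genes. Long nuclear RNAs (a list of 12) summed to 619 CPM (read counts scaled to library size with TMM) in control replicate 1, to 2349 and 2367 CPM in control replicates 2 and 3, and to 808 to 991 CPM in the hairpin-labelled libraries. Mitochondrially encoded genes took 0.991%, 3.31% and 3.21% of counts in the 3 controls and 2.35% to 2.54% with the hairpin label. The labels name more than 1 extraction kit and sequencer without assigning them to libraries, so batch and group cannot be told apart. Each gene was therefore compared with all 3 controls, with control replicate 1, and with control replicates 2 and 3. These 3 control sets share the hairpin-labelled libraries, so calls in all of them are not independent evidence.

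Markers of the line were mixed in level. The 6 glial and glioma markers summed to 4439 to 5052 CPM in controls and 5523 to 6727 CPM with the hairpin label, and 3 of them exceeded 1 CPM in every library. Most of this sum was VIM, at 4409 to 4987 CPM in controls and 5469 to 6666 CPM with the label. GFAP and OLIG2 lay lower with the label, but neither reached an adjusted p under 0.05. Adjusted p (edgeR) was 0.337 and 0.319 against all controls and 0.307 and 0.246 against control replicates 2 and 3. GFAP went from 1.68, 1.87 and 2.10 CPM to 1.28, 1.59 and 1.03 CPM. OLIG2 went from 1.48, 1.38 and 1.61 CPM to 0.578, 1.29 and 0.367 CPM, and NES with the label lay between the controls. SOX2 and S100B, which mark neural stem cells and astrocytes, lay below 1 CPM throughout. CDKN2A and MTAP, which are deleted in U87, together gave 0.186 to 0.692 CPM in controls and 0.220 to 0.353 CPM with the hairpin label. The 4 fibroblast and pericyte markers summed to 517 to 847 CPM in controls and 687 to 704 CPM with the hairpin label, the 4 neuronal ones to 10.6 to 29.6 and 27.5 to 37.2 CPM, and the 5 epithelial ones to 4.08 to 15.6 and 11.1 to 17.9 CPM. The sums were 17.5 to 25.1 and 15.3 to 20.7 CPM for 4 microglial markers, 1.66 to 4.65 and 6.89 to 8.48 CPM for 3 endothelial markers, and 0.692 to 3.37 and 3.45 to 5.72 CPM for 3 oligodendrocyte markers. Single genes led these sums too. COL1A1, SNAP25 and CSF1R made up most of theirs in every library, and KRT8, PECAM1 and MBP in every labelled library. MOG, which is specific to oligodendrocytes, and AIF1, a microglial marker, were at 0 counts in all 6 libraries. The part of these differences in the results below was not tested. In bulk libraries, fewer cells of a type and less RNA per cell cannot be told apart.

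LAMP2, the gene that the hairpin targets, was not lower in the libraries with the hairpin label. Its counts (ENSG00000005893, GRCh38 chromosome X, 120426148 to 120469365, minus strand) cover the whole gene. Its level was 195, 294 and 292 CPM in control replicates 1, 2 and 3 and 257, 256 and 289 CPM in the hairpin-labelled libraries, so the groups overlapped. The log2 fold change was 0.04 against all controls (SE 0.15, adjusted p = 0.892), 0.46 against control replicate 1 (SE 0.14, adjusted p = 0.0457) and -0.12 against control replicates 2 and 3 (SE 0.10, adjusted p = 0.369). Against control replicate 1 the log2 fold change stayed similar in other settings, but its side of the threshold did not. It fell short with RLE scaling (0.45), without a filter (0.47), with the U87 libraries alone (0.46), with a replicate block (0.41) and without labelled replicate 2 or 3 (0.49 and 0.40). The threshold was met with DESeq2 (0.45), with the U251 controls divided (0.46) and without labelled replicate 1 (0.49). An exact two-sided permutation test on log2(FPKM + 1) of the 6 libraries gave p = 1, where the smallest p that 20 arrangements allow is 0.1. The label of a knockdown is therefore not borne out by gene counts, and the group is called by its label throughout.

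These counts do not separate the 3 splice forms, which share most exons and end in different ones. Only reads that reach sequence not shared by the forms could tell LAMP2A from the others. The last 60 coding bases of each form, from GENCODE 29 on GRCh38, are shown as a stretch of the differing last exons. They lie at chrX:120431323-120431382 for A, chrX:120439154-120439213 for B and chrX:120428484-120428543 for C, on the minus strand. Capitals mark the 31 positions at which the 3 forms are not all identical.
LAMP2A: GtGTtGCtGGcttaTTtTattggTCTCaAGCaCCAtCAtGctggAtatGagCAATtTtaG
LAMP2B: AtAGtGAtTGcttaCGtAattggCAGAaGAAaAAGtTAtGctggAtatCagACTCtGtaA
LAMP2C: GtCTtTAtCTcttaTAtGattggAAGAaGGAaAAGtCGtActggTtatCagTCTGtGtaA
LAMP2A shares 34 of these 60 bases with each of the other forms, and B and C share 43. A change in LAMP2A that is offset by B or C would not be seen in the gene count.

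The genes that differed depended on which controls were used. A gene is said here to pass, to rise or to fall at an adjusted p under 0.05, and is called where the log2 fold change is also at least 1 in size. Against all 3 controls 987 of 16841 genes passed higher (5.86%) and 1304 lower (7.74%), and 350 were called higher (2.08%) and 794 lower (4.71%). Against control replicate 1, 1559 of 18075 passed higher (8.63%) and 932 lower (5.16%), with 716 called higher (3.96%) and 212 lower (1.17%). Against control replicates 2 and 3, 4099 of 17441 passed higher (23.5%) and 4053 lower (23.2%), with 1348 called higher (7.73%) and 2129 lower (12.2%). The balance between higher and lower calls thus turned with the control. In the first comparison 1 library moved the counts by over 1.5 times: without control replicate 1, 2 or 3 they were 1348, 188 and 194 higher and 2129, 327 and 349 lower. Without hairpin-labelled replicate 1 they were 224 higher and 483 lower, and without replicate 2 or 3 the lower count was 463 and 428. With the U87 libraries fitted alone, edgeR called 1 gene higher and 0 lower against all controls, while 350 and 813 passed 2-fold at an unadjusted p under 0.05 and DESeq2 called 229 and 445.

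Of the 350 genes called higher against all controls, all 350 also lay higher against control replicate 1 alone, with a median log2 fold change of 1.40 there and 2.25 against control replicates 2 and 3. Of the 794 called lower, 155 lay higher than control replicate 1 rather than lower, and the medians were -0.63 and -2.18. In all 3 control sets the same direction was called for 122 of 16837 genes higher (0.725%) and 78 lower (0.463%), and 408 passed higher (2.42%) and 279 lower (1.66%). With the U87 libraries fitted alone, 1 and 0 were called in all 3 sets, since few passed against all controls, while 110 and 46 were called against both control replicate 1 and control replicates 2 and 3, beside 125 and 78 in the fit with the U251 libraries. Genes called in opposite directions against control replicate 1 and against control replicates 2 and 3 numbered 88, of which 73 were higher against replicate 1. The median exonic length of those 73 was 9493 bases, against 4703 bases for all genes tested.

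**Figure D1:**
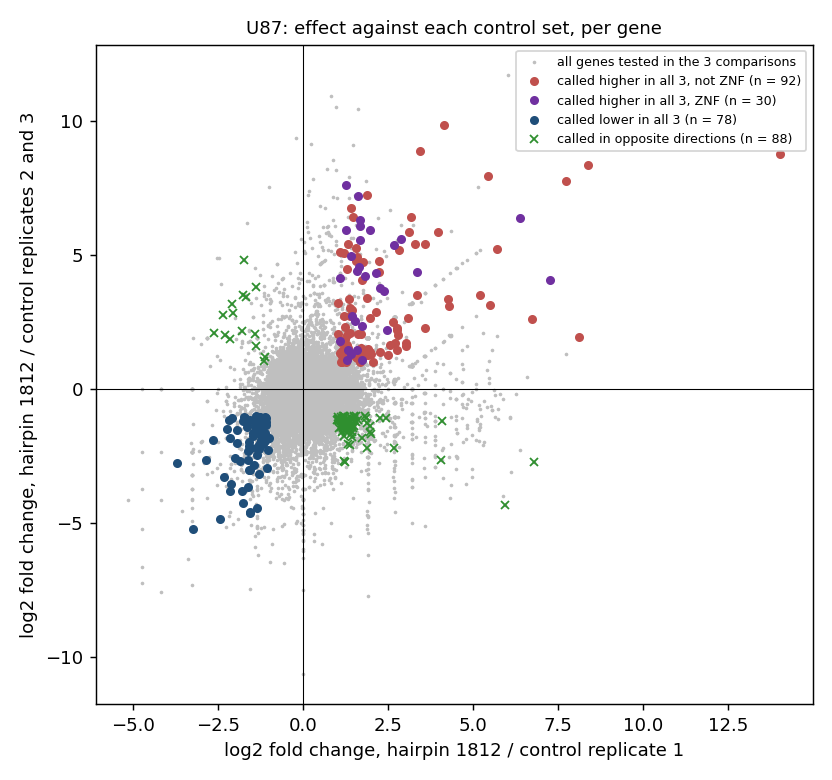
Each point is 1 gene, with its log2 fold change in hairpin-labelled libraries over control replicate 1 on the x axis and over control replicates 2 and 3 on the y axis. The 122 genes called higher in all 3 control sets lie at upper right, 30 of them ZNF genes, the 78 called lower lie at lower left, and 88 genes called in opposite directions lie in the other 2 quadrants.

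The leading genes that rose are described first. The groups did not overlap in all 122 genes called higher and all 78 called lower in every control set. Among all 16841 genes tested, they did not overlap in 4056. Such separation was also a condition for naming leading genes other than the given markers, so it is no separate result about them. EFEMP1 (ENSG00000115380, chromosome 2, 55865967 to 55924139), which codes for fibulin-3, an elastic-fibre glycoprotein secreted by gliomas, stood at 5.66, 1.80 and 0.866 CPM in control replicates 1, 2 and 3. Its levels in the hairpin-labelled libraries were 54.8, 55.3 and 55.9 CPM, all above every control and nearly equal to each other. The log2 fold change of EFEMP1 was 4.32 against all controls (SE 0.41, adjusted p = 0.000139), 3.29 against control replicate 1 (SE 0.20, adjusted p = 7.57e-07) and 5.40 against control replicates 2 and 3 (SE 0.21, adjusted p = 7.83e-11).

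LAMA4 (ENSG00000112769, chromosome 6, 112107931 to 112254939), the laminin alpha-4 chain of vascular basement membranes, differed little between the control sets. It stood at 15.5, 17.02 and 17.6 CPM in controls and at 106, 95.1 and 89.8 CPM with the hairpin label. The log2 fold changes of LAMA4 were 2.53 (SE 0.13, adjusted p = 1.85e-07), 2.65 (SE 0.20, adjusted p = 6.02e-06) and 2.50 (SE 0.13, adjusted p = 1.97e-09) in the order all controls, replicate 1, and replicates 2 and 3, which is the order used from here on. CHRDL1 (ENSG00000101938, chromosome X, 110673856 to 110795819), a secreted antagonist of bone morphogenetic proteins, had 6.60, 1.73 and 1.30 CPM in controls and 37.8, 27.5 and 28.3 CPM with the hairpin label. Its log2 fold changes were 3.28 (SE 0.43, adjusted p = 0.000688), 2.25 (SE 0.28, adjusted p = 0.000771) and 4.38 (SE 0.25, adjusted p = 3.91e-09).

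MGP, the matrix Gla protein that inhibits calcification, had 0.471, 0.346 and 0.495 CPM in controls and 10.02, 2.82 and 1.83 CPM with the hairpin label, so that all 3 labelled libraries were higher but the first exceeded the others. Its log2 fold changes were 3.46 (SE 0.57, adjusted p = 0.00216), 3.37 (SE 0.92, adjusted p = 0.0258) and 3.53 (SE 0.68, adjusted p = 0.000643). CCN5, a matricellular protein, showed the reverse among the labelled libraries, with 0.606, 1.25 and 1.05 CPM in controls and 2.89, 16.9 and 15.3 CPM with the label. The log2 fold change of CCN5 was 3.59 against all controls (SE 0.66, adjusted p = 0.00442), 4.26 against control replicate 1 and 3.36 against control replicates 2 and 3. LTF, which codes for the iron-binding lactoferrin, rested largely on 1 library: it had 0.404, 0.0692 and 0.0619 CPM in controls and 47.1, 3.29 and 2.79 CPM with the label. Its log2 fold change was 6.59 against all controls (SE 1.15, adjusted p = 0.00303), and control replicates 2 and 3 held 2 counts, which gave a ratio of 274 (95% interval 75.6 to 2266, for counting error only).

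LBP, the lipopolysaccharide-binding protein of the acute phase, had 0.404 CPM in control replicate 1, 0 counts in control replicates 2 and 3, and 10.6, 5.47 and 6.01 CPM with the label. Against a floor of 3 counts over control replicates 2 and 3, LBP was at least 75.1-fold higher, and its log2 fold change against control replicate 1 was 4.17 (SE 0.85, adjusted p = 0.00636). KAZN-AS1, an antisense RNA of KAZN, also had 0 counts in control replicates 2 and 3 and was at least 38.0-fold higher there, from 0.337 CPM in control replicate 1 to 3.60, 3.82 and 3.74 CPM with the label. KCNK15, a member of the two-pore potassium channels, had 0.0673, 0.0692 and 0.124 CPM in controls and 2.51, 3.88 and 5.35 CPM with the label. Only 1 count of KCNK15 fell in control replicate 1 and 3 in the others, giving ratios of 57.2 (95% interval 10.1 to 2272) and 39.3 (95% interval 13.2 to 192). The 4 counts over the controls set the precision of its log2 fold change of 5.35 (SE 0.60, adjusted p = 0.000378).

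SLC14A1, a urea transporter, had 1.75, 0.277 and 0.248 CPM in controls and 16.8, 14.6 and 14.9 CPM with the label, and its log2 fold changes were 4.34, 3.14 and 5.85 (SE 0.63, 0.55 and 0.52). GCSAML, a relative of a germinal-centre signalling protein, had 0.741, 0.346 and 0.0619 CPM in controls and 13.2, 8.82 and 13.4 CPM with the label, with log2 fold changes of 4.94, 3.98 and 5.86 (SE 0.55, 0.55 and 0.53). Adjusted p for SLC14A1 and GCSAML was at most 0.00279 in the 3 control sets. HGF, DKK3 and MEST, named after their values were seen, were also higher. HGF, the ligand of the receptor MET, had 7.14, 4.29 and 4.33 CPM in controls and 27.5, 30.1 and 36.7 CPM with the label, a log2 fold change of 2.58 against all controls (SE 0.26, adjusted p = 0.000383). DKK3, a secreted member of the Dickkopf family, had 6.19, 9.13 and 9.47 CPM in controls and 74.9, 27.1 and 24.9 CPM with the label, a log2 fold change of 2.35 (SE 0.36, adjusted p = 0.00142). The imprinted gene MEST, a hydrolase-like protein of embryonic mesoderm, had 6.60, 8.44 and 9.53 CPM in controls and 25.8, 67.3 and 75.1 CPM with the label, a log2 fold change of 2.77 (SE 0.34, adjusted p = 0.000476). HGF had log2 fold changes of 2.14 against control replicate 1 and 2.88 against the other controls. The same 2 values were 2.78 and 2.20 for DKK3 and 3.09 and 2.65 for MEST.

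**Figure D2:**
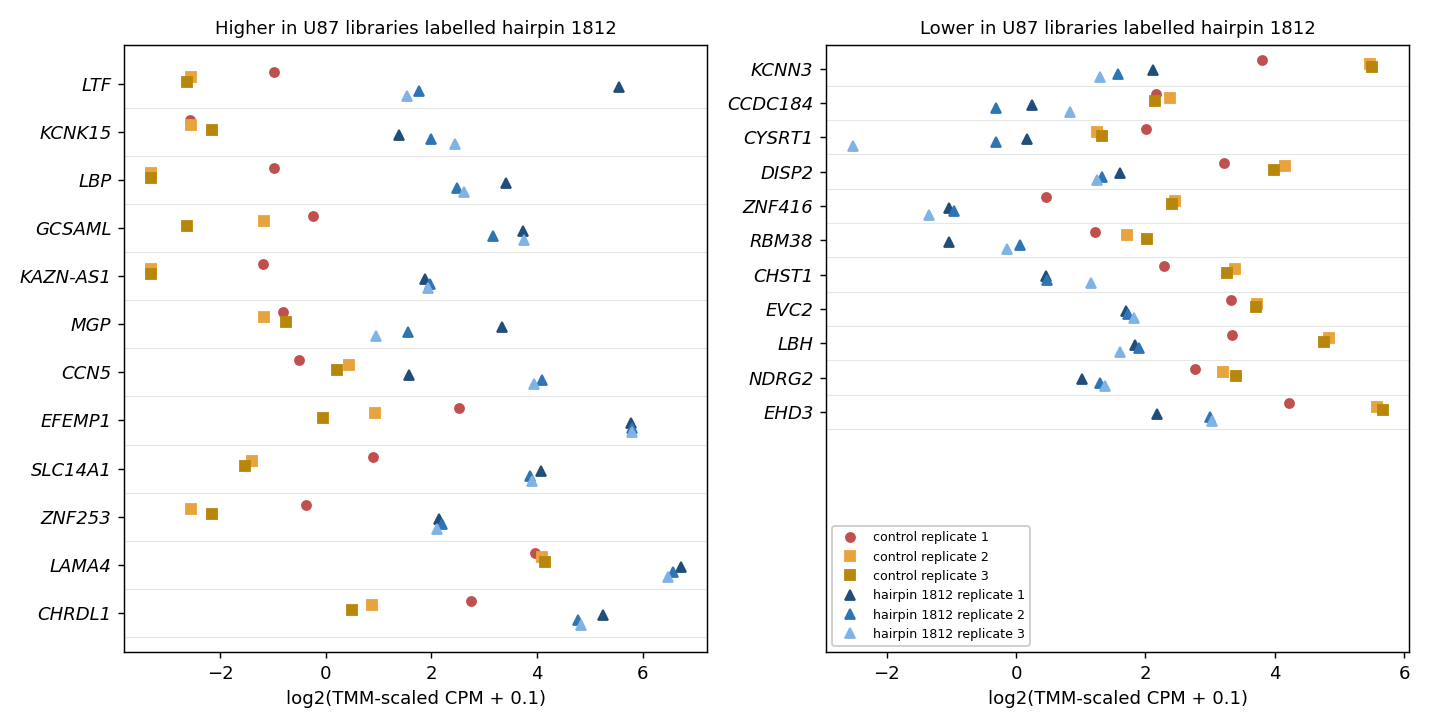
Levels of the leading genes in the 6 U87 libraries as log2(TMM-scaled CPM + 0.1), with genes higher in hairpin-labelled libraries at left and lower ones at right, 1 point per library. All triangles (hairpin label) lie beyond all circles and squares (controls) for each gene shown, and for several genes, such as EFEMP1 and KCNN3, control replicate 1 lies nearer to the triangles than control replicates 2 and 3 do. That the triangles lie apart was a condition for choosing the genes other than the given markers.

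Among the genes that fell most, several code for signalling and membrane proteins. EHD3 (ENSG00000013016, chromosome 2, 31234152 to 31269451), an ATPase of endosomal recycling tubules, had 18.6, 47.7 and 50.9 CPM in controls and 4.43, 7.88 and 8.06 CPM with the label. All 3 labelled libraries lay below every control, and control replicate 1 lay between the labelled libraries and the other controls. Its log2 fold changes were -2.52 (SE 0.34, adjusted p = 0.000803), -1.45 (SE 0.29, adjusted p = 0.00581) and -2.84 (SE 0.22, adjusted p = 9.53e-08). KCNN3, a small-conductance calcium-activated potassium channel, had 13.9, 44.5 and 45.4 CPM in controls and 4.24, 2.88 and 2.35 CPM with the label. The log2 fold changes of KCNN3 were -3.45 (SE 0.44, adjusted p = 0.000513), -2.13 (SE 0.41, adjusted p = 0.00457) and -3.81 (SE 0.26, adjusted p = 2.81e-08).

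LBH, a transcriptional cofactor of limb and heart development, had 10.03, 28.5 and 27.04 CPM in controls and 3.47, 3.65 and 2.93 CPM with the label, a log2 fold change of -2.70 against all controls (SE 0.32, adjusted p = 0.000446) and -1.57 against control replicate 1 (SE 0.24, adjusted p = 0.00162). NDRG2, a stress-responsive gene of astrocytes, had 6.73, 9.13 and 10.5 CPM in controls and 1.93, 2.35 and 2.49 CPM with the label, a log2 fold change of -1.96 (SE 0.30, adjusted p = 0.00155). RBM38, an RNA-binding protein and p53 target, had 2.22, 3.18 and 3.96 CPM in controls and 0.385, 0.941 and 0.806 CPM with the label, a log2 fold change of -2.12 (SE 0.32, adjusted p = 0.00136). All 3 genes had groups that did not overlap, as the rule for leading genes required. For NDRG2 the log2 fold change was -1.57 against control replicate 1 and -2.11 against the other controls, and for RBM38 it was -1.62 and -2.30. LBH had -3.03 against control replicates 2 and 3. The call of RBM38 against control replicate 1 was lost without labelled replicate 1 (log2 fold change -1.33, adjusted p = 0.0577).

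DISP2, of the Dispatched family of membrane proteins, had 9.16, 17.8 and 15.7 CPM in controls and 2.95, 2.41 and 2.27 CPM with the label, a log2 fold change of -2.48 (SE 0.28, adjusted p = 0.00037). CHST1, a sulfotransferase that acts on keratan sulfate, had 4.78, 10.4 and 9.47 CPM in controls and 1.28, 1.29 and 2.13 CPM with the label, a log2 fold change of -2.39 (SE 0.34, adjusted p = 0.00136). ZNF416 had 1.28, 5.40 and 5.20 CPM in controls and 0.385, 0.412 and 0.293 CPM with the label, a log2 fold change of -3.41 (SE 0.47, adjusted p = 0.00102). For DISP2 the log2 fold change was -1.84 against control replicate 1 and -2.70 against the other controls. The same 2 values were -1.61 and -2.65 for CHST1 and -1.77 and -3.81 for ZNF416. Of these, ZNF416 showed the widest gap between control replicate 1 and the other controls. CCDC184, a coiled-coil protein, did not differ among controls in this way, with 4.38, 5.12 and 4.33 CPM, and had 1.09, 0.706 and 1.69 CPM with the label, a log2 fold change of -1.92 against control replicate 1 (SE 0.42, adjusted p = 0.00914) and of -2.02 against the others (SE 0.33, adjusted p = 0.000159).

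EVC2, which works in hedgehog signalling at the primary cilium, had 9.90, 13.1 and 12.9 CPM in controls and 3.15, 3.23 and 3.45 CPM with the label, a log2 fold change of -1.87 (SE 0.38, adjusted p = 0.00702). EVC2 had -1.59 against control replicate 1 and -1.98 against the other controls. Its call against control replicate 1 was lost without labelled replicate 1, 2 or 3 (adjusted p = 0.0651, 0.0789 and 0.0832). CYSRT1, a cysteine-rich protein, had 3.91, 2.28 and 2.41 CPM in controls and 1.03, 0.706 and 0.0733 CPM with the label, a log2 fold change of -2.21 (SE 0.61, adjusted p = 0.0281). That call was lost without control replicate 2 or 3 or labelled replicate 2 or 3 (adjusted p = 0.0569, 0.0577, 0.0752 and 0.0831). CYSRT1 had log2 fold changes of -2.64 against control replicate 1 and -1.90 against the other controls. Overlapping transcription limits some of these values. Counts of KCNK15 and CCN5 can include reads of KCNK15-AS1, those of KAZN-AS1 reads of KAZN, and those of NDRG2 reads of ARHGEF40, since the libraries mark strand but the strand setting used in counting is not given in the sources used here. Among the genes described further on, ITGB8, GREM1, PACSIN2, ATG3, POLA1, CCNE2, NUSAP1, TNFRSF10B, FOSL2, EPHB4, FGFR1, SNHG14 and HSPB8 overlap another gene too, as do DKK3 and MEST.

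Zinc finger genes stood out by number among the genes called higher in every control set, a grouping made after the values were seen. KRAB zinc finger proteins, the largest class of these, are DNA-binding repressors that keep transposable elements silent, and many lie in clusters on chromosome 19 that arose by duplication. Of the 122 genes called higher, 30 had a ZNF symbol (24.6%), against 494 of the 16841 genes tested (2.93%) and 2 of the 78 called lower (2.56%). Of the 30, 25 lie on chromosome 19. The ZNF genes of chromosome 19 had median log2 fold changes of 0.30, 0.67 and 0.36 in the 3 control sets, beside -0.03, 0.03 and -0.02 for all genes tested. Against all controls 52 of these 244 genes passed higher (21.3%) and 11 lower. The 250 ZNF genes of other chromosomes had a median of -0.17 there, with 14 passing higher and 31 lower. Their direction turned with the control, with a median of 0.19 and 25 higher and 8 lower against control replicate 1, and a median of -0.26 and 30 higher and 92 lower against control replicates 2 and 3. The difference between ZNF genes of chromosome 19 and of other chromosomes was not tested.

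In each library the median level over the 30 genes was 1.55 CPM in control replicate 1, 0.242 and 0.186 CPM in control replicates 2 and 3, and 5.75, 4.67 and 5.57 CPM with the label. ZNF431 had 6.33, 0.346 and 0.248 CPM in controls and 24.0, 17.1 and 19.9 CPM with the label, with log2 fold changes of 3.14, 1.69 and 6.09 (SE 0.69, 0.32 and 0.38). ZNF85 had 2.56, 0 and 0.186 CPM in controls and 10.02, 6.94 and 7.70 CPM with the label, a log2 fold change of 1.69 against control replicate 1 (SE 0.32, adjusted p = 0.0043) and a ratio of 83.7 against the 3 counts in the other controls (95% interval 28.4 to 408). ZNF486 had 3.23, 0 and 0.0619 CPM in controls and 8.03, 7.58 and 7.92 CPM with the label, a log2 fold change of 1.28 against control replicate 1 (SE 0.23, adjusted p = 0.0031). All 3 were near 0 in control replicates 2 and 3, higher in control replicate 1, and highest with the label.

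ZNF441 instead had similar controls, with 0.808, 1.04 and 0.928 CPM against 4.37, 4.06 and 5.21 CPM with the label, and log2 fold changes of 2.29, 2.48 and 2.21 (SE 0.24, 0.40 and 0.28). ZNF91, which binds SVA and L1 elements, had 0.202, 0 and 0.186 CPM in controls and 2.38, 1.94 and 2.13 CPM with the label, and ZNF253, among the leading genes that rose, had 0.673, 0.0692 and 0.124 CPM and 4.30, 4.47 and 4.18 CPM. ZNF91 held 3 counts in control replicate 1 and 3 in the other controls, giving ratios of 10.6 (95% interval 3.52 to 52.3) and 21.9 (95% interval 7.27 to 108). The ratio for ZNF253 against control replicates 2 and 3 was 44.2 (95% interval 14.9 to 216), and its log2 fold change against control replicate 1 was 2.67 (SE 0.45, adjusted p = 0.00238). ZNF385D, a zinc finger gene of another class on chromosome 3, had 16.0, 18.3 and 19.2 CPM in controls and 34.6, 39.5 and 44.4 CPM with the label, with log2 fold changes of 1.30 and 1.09 against control replicate 1 and the other controls. Paralogous zinc finger genes share sequence, so the division of reads among them is uncertain.

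**Figure D3:**
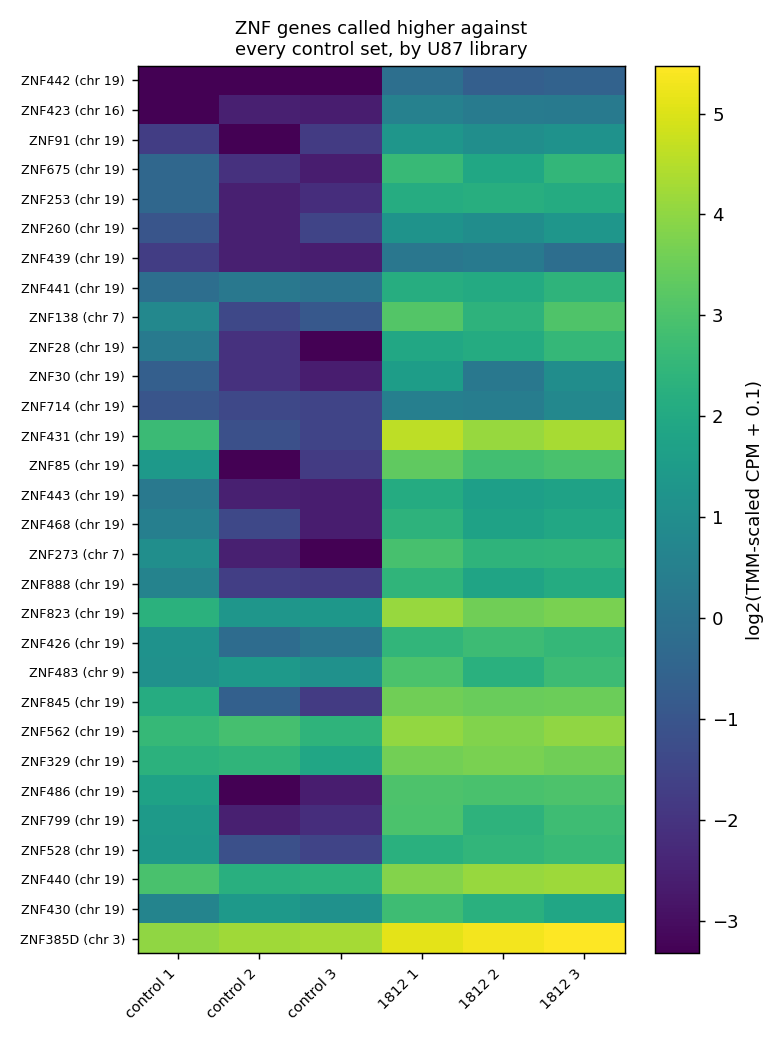
Levels of the 30 ZNF genes called higher in every control set, as log2(TMM-scaled CPM + 0.1), with genes in rows (chromosome in brackets) and the 6 U87 libraries in columns. The hairpin-labelled columns are brighter than the control columns in every row, as for all 122 genes called higher in every control set. Most rows are darkest in control replicates 2 and 3.

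Promoter sequences from RefSeq (GRCh38.p14, 250 bases before to 50 after the start) were held for 26 of the 30 genes. A pair of CCAAT boxes on the gene's strand, 29 bases apart from start to start, occurred in 7 of these 26 (26.9%), in 23 of 419 promoters of tested ZNF genes (5.49%) and in 60 of 27305 promoters (0.220%). The spacing was not planned in advance and may reflect these same promoters. The 419 promoters also include the 26, so the shares are a description and no test of enrichment. The stretch from 100 to 21 bases before the start is shown for 6 of the 7, because it lets the shared layout be seen, with CCAAT in capitals. The seventh, ZNF675, has its boxes at 52 and 23 bases before the start, nearer than in the others, so that the window does not hold both whole. ZNF138 lies at chr7:64794328-64794407, ZNF714 at chr19:21082103-21082182, ZNF431 at chr19:21141940-21142019, ZNF85 at chr19:20923151-20923230, ZNF486 at chr19:20167114-20167193 and ZNF430 at chr19:21020557-21020636, all on the plus strand.
ZNF138: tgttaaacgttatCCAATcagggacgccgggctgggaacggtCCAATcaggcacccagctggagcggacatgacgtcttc
ZNF714: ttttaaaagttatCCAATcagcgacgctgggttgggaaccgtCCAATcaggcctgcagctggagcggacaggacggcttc
ZNF431: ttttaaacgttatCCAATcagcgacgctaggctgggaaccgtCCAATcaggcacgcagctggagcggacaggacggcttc
ZNF85: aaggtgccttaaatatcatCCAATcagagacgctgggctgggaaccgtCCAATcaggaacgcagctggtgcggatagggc
ZNF486: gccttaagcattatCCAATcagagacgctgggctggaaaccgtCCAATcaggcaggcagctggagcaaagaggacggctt
ZNF430: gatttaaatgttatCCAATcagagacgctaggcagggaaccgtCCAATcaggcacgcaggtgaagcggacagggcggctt
The 6 printed windows resemble each other between and beyond the boxes, as duplicated genes do, so they are not independent cases of the motif. Of these genes, ZNF138 had 1.62, 0.277 and 0.433 CPM in controls and 8.54, 4.998 and 8.21 CPM with the label. ZNF714 had 0.404, 0.277 and 0.248 CPM in controls and 1.28, 1.23 and 1.61 CPM with the label. ZNF430 had 1.48, 2.63 and 2.10 CPM in controls and 6.62, 4.70 and 3.59 CPM with the label. All 3 labelled libraries exceeded all 3 controls in each, as in all 122 genes called higher in every control set. The match is a description of sequence and no measurement of binding.

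The gene lists below are described by the members that passed in each control set and, for most lists, by the median. Values are in the order all controls, replicate 1, and replicates 2 and 3. The shares of all genes tested that passed, 5.86%, 8.63% and 23.5% higher and 7.74%, 5.16% and 23.2% lower, and their medians of -0.03, 0.03 and -0.02, are the background to each count. In the matrix glycoprotein list 3 of 37 tested members passed higher and 6 lower against all controls, 11 and 2 against control replicate 1, and 6 and 12 of 38 against control replicates 2 and 3. The list's medians were -0.16, 0.44 and -0.12. Besides EFEMP1 and MGP, SPOCK1, a testican proteoglycan, passed higher in every control set, with 176, 195 and 197 CPM in controls and 394, 312 and 330 CPM with the label and log2 fold changes of 0.87, 0.98 and 0.83. AGRN, the basement membrane proteoglycan agrin, fell from 94.5, 95.9 and 92.2 CPM to 53.3, 46.7 and 51.0 CPM, with log2 fold changes of -0.90, -0.90 and -0.89 (adjusted p = 0.0109, 0.0319 and 0.0023). Both had controls that agreed closely.

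LAMA4 was the only laminin of 10 tested that passed in the same direction in every control set, and the laminin medians were -0.51, 0.30 and -0.68, with 2, 2 and 3 passing higher and 2, 0 and 6 lower. Of 24, 25 and 24 collagens tested 1, 3 and 2 passed higher and 3, 0 and 8 lower, with medians of -0.06, 0.40 and -0.27. COL6A1, a chain of the microfibrillar collagen VI, passed higher in every set, with 574, 634 and 621 CPM in controls and 1335, 1005.5 and 946 CPM with the label and log2 fold changes of 0.85, 0.94 and 0.82. COL14A1, a collagen outside the list, was called higher in every set too. Its log2 fold changes were 2.57, 3.60 and 2.27, at a mean of 0.13 FPKM. Matrix proteases and their inhibitors had 8, 6 and 11 members passing higher and 0, 0 and 3 lower, of 27, 29 and 27 tested, with medians of 0.46, 0.57 and 0.41. In that list ADAMTS12, a metalloprotease with thrombospondin motifs, passed in every set, from 64.7, 67.5 and 69.5 CPM to 166, 121 and 110 CPM.

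Integrins moved in both directions, and the medians of the list were 0.30, 0.53 and 0.22. ITGA11, the alpha chain of a collagen receptor, had 21.4, 8.16 and 6.81 CPM in controls and 48.0, 51.8 and 48.9 CPM with the label, with log2 fold changes of 2.03, 1.22 and 2.74 (adjusted p = 0.0069, 0.0306 and 2.18e-06). ITGA4, the alpha chain of a fibronectin and VCAM1 receptor, fell from 1.41, 12.5 and 11.4 CPM to 0.257, 0.470 and 0.733 CPM, with log2 fold changes of -4.11, -1.54 and -4.60. ITGB8, whose heterodimer activates latent TGF-beta, rose from 5.86, 6.43 and 7.05 CPM to 14.9, 9.23 and 10.2 CPM. Over the 15 integrins tested, 4, 3 and 5 passed higher and 2, 1 and 5 lower.

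In the list of the BMP and TGF-beta pathway, secreted antagonists and a ligand moved in opposite directions. GREM1, which like CHRDL1 sequesters BMPs, had 468, 670 and 673 CPM in controls and 1099, 1008 and 1097 CPM with the label, with log2 fold changes of 0.82, 1.20 and 0.68 (adjusted p = 0.014, 0.00263 and 0.00108). TGFB2, a TGF-beta ligand, fell from 33.7, 55.8 and 56.6 CPM to 15.9, 16.7 and 18.99 CPM, with log2 fold changes of -1.50, -0.97 and -1.69. SMAD2, a signal transducer of that ligand, rose from 64.0, 55.8 and 64.5 CPM to 105, 91.9 and 105 CPM. Over the list, 3 of 38 passed higher and 6 lower against all controls, 12 of 39 and 1 against control replicate 1, and 4 of 38 and 14 against control replicates 2 and 3. The direction of the list as a whole thus turned with the control, with medians of -0.12, 0.41 and -0.19.

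Of 22 genes of chaperone-mediated autophagy itself 0, 2 and 7 passed higher and 1, 4 and 3 lower, with medians of 0.00, -0.21 and 0.21. MEF2D, a transcription factor that is degraded by this pathway, was the only member to pass in every control set. It fell from 66.9, 59.97 and 62.7 CPM to 32.8, 41.5 and 44.6 CPM, with log2 fold changes of -0.67, -0.75 and -0.61. In the lysosome list of 42 genes, 5, 4 and 20 passed higher and 5, 1 and 10 lower. CTSK, the collagen-degrading protease cathepsin K, rose from 248, 247 and 249 CPM to 555, 413 and 421 CPM, with log2 fold changes of 0.90, 0.91 and 0.92 (adjusted p = 0.00565, 0.0183 and 0.000407). ASAH1, acid ceramidase, rose from 86.1, 125 and 129 CPM to 166, 185 and 211 CPM. The medians of the lysosome list were 0.18, 0.07 and 0.29. Outside the list, the lysosomal amidase NAAA and the fucosidase FUCA2 were called lower in every control set. Their log2 fold changes were -2.55, -1.04 and -2.94 for NAAA and -1.14, -1.29 and -1.04 for FUCA2.

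Of 34 macroautophagy genes 6, 3 and 11 passed higher and 1, 4 and 4 lower. ATG3, the enzyme that conjugates LC3 to lipid, rose in every control set, from 101, 108 and 99.2 CPM to 145, 149 and 159 CPM. In the endosomal recycling list of 32, 4, 5 and 13 passed higher and 3, 4 and 9 lower. SNX10, a sorting nexin of endosome and lysosome maturation, had 0.606, 0.0692 and 0.124 CPM in controls and 3.34, 2.00 and 3.30 CPM with the label, a log2 fold change of 2.23 against control replicate 1 (SE 0.38, adjusted p = 0.00261) and a ratio of 28.9 against 3 counts in the other controls (95% interval 9.68 to 142). SNX2, a retromer-associated nexin, rose from 62.4, 86.0 and 86.3 CPM to 102, 115 and 131 CPM. PACSIN2, a membrane-bending partner of EHD proteins, fell with EHD3, from 83.8, 103 and 100 CPM to 48.9, 61.6 and 54.3 CPM.

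Many DNA replication genes rose, but the number that passed depended on the control. Of 38 members 13 passed higher against all controls, 4 against control replicate 1 and 37 against control replicates 2 and 3, and none passed lower, with medians of 0.50, 0.01 and 0.86. CCNE2, a cyclin of S phase entry, rose in every control set, from 18.7, 18.8 and 22.6 CPM to 50.5, 32.6 and 37.4 CPM, with log2 fold changes of 1.00, 1.11 and 0.97. POLA1, the catalytic subunit of the priming polymerase, rose from 40.1, 40.8 and 45.9 CPM to 81.7, 68.9 and 69.9 CPM. The clamp loader subunit RFC3 rose from 57.9, 51.8 and 56.6 CPM to 117, 87.1 and 97.8 CPM, and the replication initiation factor MCM10 from 33.7, 37.4 and 36.8 CPM to 77.9, 51.7 and 52.0 CPM. Of 32 mitosis genes 5, 11 and 18 passed higher and 0, 2 and 3 lower. CDK1, the mitotic kinase, rose from 146, 162 and 166 CPM to 349, 251.4 and 282 CPM, with log2 fold changes of 0.90, 1.02 and 0.86 (adjusted p = 0.00176, 0.00478 and 0.000192). NDC80, of the kinetochore, rose from 61.6, 68.6 and 69.7 CPM to 125, 99.9 and 106 CPM. The spindle genes TTK and NUSAP1 also rose, with log2 fold changes of 0.69 and 0.80 against all controls. In all these genes labelled replicate 1 was the highest library. The medians of the mitosis list were 0.33, 0.34 and 0.44.

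Several targets of p53 fell. Of 25 tested, 6 passed lower against all controls and 7 against control replicate 1, and of 26, 14 against control replicates 2 and 3, while 0, 1 and 2 passed higher, with medians of -0.41, -0.47 and -0.46. BTG2, an antiproliferative gene, fell from 13.8, 11.1 and 10.03 CPM to 5.59, 2.00 and 3.30 CPM, with log2 fold changes of -1.68, -1.92 and -1.52 (adjusted p = 0.00661, 0.00751 and 0.00163). TNFRSF10B, a TRAIL death receptor, fell from 185, 187 and 177 CPM to 126, 111 and 116 CPM, PHLDA3, an inhibitor of AKT, from 162, 154 and 153 CPM to 103, 97.95 and 87.03 CPM, and FDXR, ferredoxin reductase, from 35.8, 25.1 and 27.8 CPM to 18.9, 19.8 and 17.8 CPM. The p53 medians were thus nearly the same whichever controls were used.

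Some genes of the integrated stress and unfolded protein response also fell, with 6, 5 and 10 of 28 passing lower and 0, 2 and 3 higher, and medians of -0.34, -0.40 and -0.28. TRIB3, a pseudokinase induced by ATF4 and CHOP, fell from 16.2, 11.1 and 10.5 CPM to 4.63, 4.47 and 5.13 CPM, with log2 fold changes of -1.41, -1.77 and -1.18. SLC3A2, the heavy chain of amino acid exchangers, fell from 430, 257 and 233 CPM to 180, 161 and 140 CPM, and XBP1, a transcription factor of the unfolded protein response, from 99.2, 90.5 and 79.1 CPM to 68.7, 53.6 and 52.3 CPM. ANGPTL4, a hypoxia-induced lipase inhibitor, fell from 13.7, 19.4 and 15.2 CPM to 3.34, 6.64 and 6.45 CPM, while the 25 hypoxia genes as a list passed 1, 9 and 2 higher and 1, 1 and 6 lower. HK1, the first enzyme of glycolysis, fell from 930, 830 and 836 CPM to 577, 720 and 611 CPM, and of 21 glycolysis genes 2, 0 and 13 passed higher and 1, 2 and 2 lower.

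Receptor tyrosine kinases that passed in every control set were lower. EPHB4, a receptor of ephrin-B2, had controls that agreed, at 24.3, 24.8 and 22.3 CPM, and fell to 12.1, 11.7 and 9.68 CPM, with log2 fold changes of -1.09, -1.12 and -1.06 (adjusted p = 0.00136, 0.00436 and 0.000138). FGFR1, a fibroblast growth factor receptor, fell from 271, 258 and 268 CPM to 172, 170 and 148 CPM, with log2 fold changes of -0.70, -0.73 and -0.67. KDR, a VEGF receptor, fell from 2.76, 24.1 and 23.9 CPM to 1.03, 1.12 and 1.10 CPM, so that the size of its change rested on the control used, with -1.34 against control replicate 1 and -4.45 against the others. Over 27, 28 and 28 kinases tested, 2, 3 and 5 passed higher and 3, 4 and 9 lower.

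Of the cytokine list, CXCL8 and NFKBIA, a chemokine and the inhibitor of NF-kappaB, fell, and IL1RAP, a co-receptor of interleukin-1, rose. CXCL8 went from 167, 121 and 122 CPM to 97.1, 75.8 and 75.7 CPM, NFKBIA from 196, 138 and 137 CPM to 116, 96.7 and 90.1 CPM, and IL1RAP from 10.8, 16.7 and 18.5 CPM to 34.6, 24.0 and 32.4 CPM. Of 31, 32 and 31 members tested 4, 1 and 9 passed higher and 3, 5 and 8 lower. The interferon list had no member passing in every control set, and its medians were 0.17, 0.48 and 0.06. Of its 35 members, 1 passed higher and 0 lower against all controls, and 9 and 2 against control replicates 2 and 3. The list does not hold all interferon-induced genes. IFITM1, which lies outside it, was called higher in every set, with log2 fold changes of 2.70, 1.88 and 3.40. So was the long noncoding RNA BISPR, with 1.92, 3.03 and 1.60 at a mean of 0.115 FPKM. In the MHC class I list of 18, ERAP2, a peptide-trimming aminopeptidase, rose in every set, from 79.5, 103 and 103 CPM to 184, 131 and 147 CPM, while 1, 1 and 8 members passed higher and 0, 2 and 0 lower.

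CHI3L1, a secreted marker of mesenchymal glioblastoma, had 28.8, 75.1 and 69.7 CPM in controls and 305, 145 and 136 CPM with the label, with log2 fold changes of 1.76, 2.77 and 1.45 (adjusted p = 0.00857, 0.00184 and 0.000763). CDH11, a mesenchymal cadherin, had 22.3, 0.761 and 0.371 CPM in controls and 65.7, 55.4 and 58.7 CPM with the label, with log2 fold changes of 2.94, 1.43 and 6.75. FOSL2, an AP-1 factor of the mesenchymal state, fell from 330, 444 and 446 CPM to 209, 224 and 211 CPM. These 3 genes of the mesenchymal list thus did not move one way, and over its 30 members 2, 6 and 10 passed higher and 5, 2 and 11 lower. CDH11 was also the only member of the cadherin list to pass in every set, and the list's medians were -0.45, 0.08 and -0.59. Of 24 tested against all controls 2 passed higher and 6 lower, and of 25 against control replicates 2 and 3, 3 and 11. Outside the list, the protocadherins PCDHA10, PCDHB2 and PCDHB10 were called higher in every set. Their log2 fold changes were 4.53, 3.59 and 5.42 for PCDHA10, 2.26, 1.45 and 2.94 for PCDHB2 and 1.84, 1.23 and 2.31 for PCDHB10. In axon guidance, SEMA5A, a transmembrane semaphorin, rose from 12.5, 39.4 and 40.8 CPM to 66.3, 63.5 and 60.8 CPM, and of 34, 34 and 35 tested 2, 2 and 5 passed higher and 7, 2 and 15 lower.

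**Figure D4:**
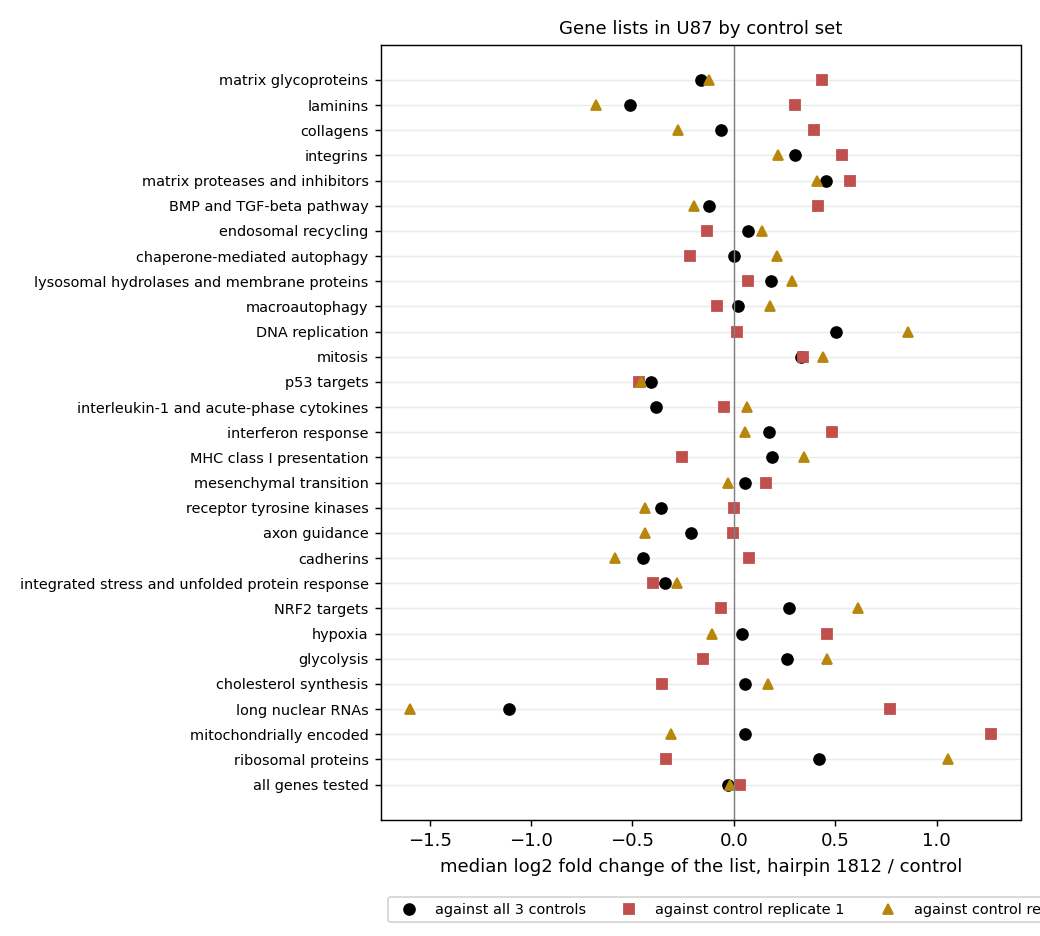
Median log2 fold change of each gene list, hairpin-labelled libraries over control, against all 3 controls (circles), control replicate 1 (squares) and control replicates 2 and 3 (triangles), with all genes tested in the bottom row. The p53, stress and axon guidance lists lie below 0 in all 3 control sets. Matrix proteases, integrins, mitosis, DNA replication, interferon and lysosome lists lie above 0. Against control replicate 1, axon guidance (-0.01) and DNA replication (0.01) are close to 0. Long nuclear RNAs, mitochondrially encoded genes and ribosomal proteins are among the lists that change sides.

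Several lists changed direction with the control. All 13 mitochondrially encoded genes passed higher against control replicate 1, but against control replicates 2 and 3, 1 passed higher and 6 lower, with medians of 1.27 and -0.31. Of 47 ribosomal protein genes 44 passed higher against control replicates 2 and 3 and 0 against control replicate 1, where 1 passed lower, with medians of 1.06 and -0.33. Of 12 long nuclear RNAs 0, 2 and 0 passed higher and 2, 2 and 9 lower, with medians of 0.77 against control replicate 1 and -1.60 against the others. One of them, SNHG14, the host of small nucleolar RNAs at the imprinted Prader-Willi locus, passed lower in every control set, at 13.7, 62.6 and 66.5 CPM in controls and 6.04, 6.70 and 9.68 CPM with the label, though it overlaps SNRPN and UBE3A. NRF2 targets passed 1, 0 and 8 higher and 2, 1 and 4 lower of 22, 23 and 22, cholesterol synthesis genes 0, 1 and 6 higher and none lower of 24, and cancer-testis antigens 1, 0 and 1 higher and 1, 0 and 1 lower of 7, 8 and 7. No member of these last 3 lists passed the same way in every control set.

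Single genes could be called in opposite directions. FN1, the matrix protein fibronectin, had 417, 3752 and 3728 CPM in control replicates 1, 2 and 3 and 1693, 1459.5 and 1456 CPM with the label, so the labelled libraries lay between the controls. Its log2 fold change was 1.89 against control replicate 1 (SE 0.37, adjusted p = 0.00492), -1.27 against control replicates 2 and 3 (SE 0.24, adjusted p = 0.000615) and -0.78 against all controls (SE 0.53, adjusted p = 0.343). PRRX1, a mesenchymal homeobox factor, had 33.8, 229 and 227 CPM in controls and 102, 94.7 and 97.6 CPM with the label. ASPM, a spindle protein, had 37.0, 254 and 270 CPM and 82.9, 78.0 and 114 CPM, and TTC3, a ubiquitin ligase, 47.9, 270 and 289 CPM and 131, 127 and 151 CPM. Each of these was called higher against control replicate 1 and lower against the other controls.

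The reverse held for HSPB8, a small heat shock protein that works with BAG3, at 175, 37.6 and 34.5 CPM in controls and 78.5, 87.1 and 78.6 CPM with the label. CCL3, a chemokine, had 50.9, 0.899 and 1.98 CPM in controls and 11.6, 10.4 and 7.55 CPM with the label. SERINC2, a serine incorporator family member, had 24.98, 0.623 and 0.743 CPM and 10.1, 10.8 and 8.06 CPM, and ACTL8, an actin-like protein, 42.4, 0.968 and 1.49 CPM and 7.84, 16.6 and 15.3 CPM. For all 8 genes the controls bracketed the labelled libraries, and a direction could not be given. Against all controls the adjusted p of these 8 genes lay between 0.188 and 0.994.

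**Figure D5:**
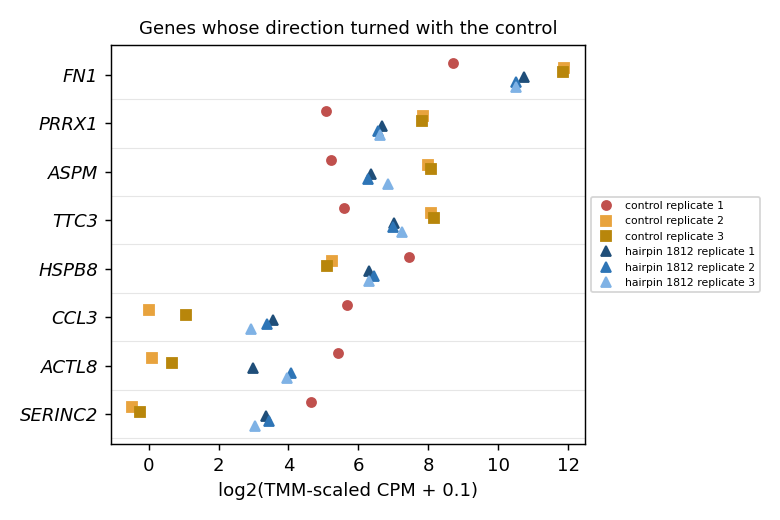
Levels of 8 genes called in opposite directions against control replicate 1 and against control replicates 2 and 3, as log2(TMM-scaled CPM + 0.1), 1 point per U87 library. In every row the 3 hairpin-labelled libraries (triangles) lie between control replicate 1 (circle) and control replicates 2 and 3 (squares).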

How the data were processed

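Gene expression was measured in 15 RNA-seq libraries, depleted of ribosomal RNA and strand-marked with dUTP per the labels' protocols. Per the submitters' processing notes, bcl2fastq 2.17.1.14, cutadapt 1.9.1, HISAT2 2.0.1, HTSeq 0.6.1, bedtools 2.17.0 and DESeq2 were used with GRCh38. The sources used here do not give the counting strand or gene annotation. The authors deposited read counts and FPKM for 60612 genes. FPKM served for the LAMP2 permutation test and the 1 FPKM minimum below.

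Deposited counts were tested with edgeR 4.0.16 (quasi-likelihood, TMM, filterByExpr, two-sided, Benjamini-Hochberg over all genes) in R 4.3.3, on 15 libraries with 5 group means, or on 13 or 14 libraries without U87 control replicates 2 and 3 or 1. The lone control of the 13-library fit is assumed to vary like the other groups. SE is the absolute log2 fold change divided by the square root of F. CPM uses TMM-scaled library sizes of the 15-library fit. Folds against 0 counts use a floor of 3 counts over the group, which is 0.176 to 0.220 CPM in a single library, and ratios against 1 to 3 counts have exact 95% intervals, all for counting error only. Where 1 to 3 counts stood in a group, fitted values depend on the prior count.

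The members and lists were chosen with earlier results of these data known. Named are LAMP2, the 4 given markers EFEMP1, LAMA4, CHRDL1 and EHD3, the 10 highest and 10 lowest genes called in all control sets (at least 1 FPKM in the higher group, groups not overlapping, ranked by the smallest of the 3 fold changes, without clone-based names and genes of chromosome Y), up to 4 members per list that passed in every control set, and 4 genes in each direction called oppositely. Other genes were named after their values were seen. A list member that the rule names is not reported here by name and stayed in the counts. Simulated counts with known changes were used to test the scripts. Alternatives were DESeq2 1.42.0, RLE scaling, no filter, U87 libraries alone, a replicate block, U251 controls divided, adjusted p alone, single libraries left out and, added after seeing the data, control replicates 2 and 3 summed.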

Additional observations from a re-analysis of the deposited data

Results flagged for a closer look

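Of 83 named genes whose effect could be compared between lines, 56 had an effect of hairpin 1812 in U87 that differed from that in U251 by a test of the difference in the 15-library fit, against all 3 controls of each line (edgeR, adjusted p of at most 0.0493 over all genes). Over all 16841 genes tested, 760 differed so (4.51%), and of the 2291 that passed in U87, 580 did (25.3%). Most of the named genes were chosen for their effect in U87, so their share is partly set by that choice. Values below are the log2 effect in U87 minus that in U251. LAMP2 itself differed by 1.16 (adjusted p = 0.00931), with log2 fold changes of 0.04 in U87 and -1.12 in U251. CXCL8 differed by -2.48 (adjusted p = 0.00119), at -0.72 in U87 and 1.76 in U251 (adjusted p = 0.00162 there). MGP moved in opposite directions, by 3.46 in U87 and -2.15 in U251 (adjusted p = 0.0452 there), and so did ITGB8, by 0.83 and -0.79 (adjusted p = 0.031). Among the secreted, matrix and integrin genes, the difference was 5.61 for MGP, 4.93 for EFEMP1, 3.07 for LAMA4, 2.45 for CHRDL1, 1.08 for SPOCK1, 1.60 for COL6A1, 1.62 for ITGB8, -3.56 for ITGA4, 3.19 for ITGA11 and 0.93 for ADAMTS12. For the other leading genes, the difference was 6.23 for LTF, 4.80 for KCNK15, -2.33 for CCDC184, -2.40 for DISP2, -3.88 for ZNF416, -1.93 for RBM38, -3.08 for LBH and -1.85 for NDRG2. Among endosomal, lysosomal and autophagy genes, the difference was -2.56 for EHD3, 3.85 for SNX10, -0.71 for PACSIN2, -0.77 for MEF2D, 0.95 for ASAH1 and 1.38 for CTSK. For SMAD2 and the cell cycle genes, the difference was 0.89 for SMAD2, 1.10 for POLA1, 0.88 for RFC3, 1.06 for CCNE2, 1.04 for MCM10, 0.99 for NDC80, 0.81 for CDK1, 1.22 for NUSAP1 and 0.80 for TTK. Among genes of p53, stress and hypoxia, the difference was -1.21 for PHLDA3, -1.56 for SLC3A2, -1.72 for TRIB3, -0.97 for XBP1 and -1.71 for ANGPTL4. For cytokine, antigen presentation and kinase genes, the difference was 1.41 for IL1RAP, 0.92 for ERAP2, -0.84 for EPHB4 and -3.24 for KDR. Among zinc finger genes, the difference was 4.07 for ZNF253, 4.33 for ZNF91, 2.84 for ZNF138, 3.54 for ZNF431, 3.19 for ZNF85, 2.25 for ZNF441, 2.37 for ZNF714, 1.50 for ZNF430 and 1.18 for ZNF385D. For genes named after their values were seen, and SNHG14, the difference was 2.03 for DKK3, 2.85 for MEST and -2.25 for SNHG14. The U87 effects carry the spread among U87 controls described above. The U251 controls were not alike either, so the U251 effects carry a spread too. U251 control replicate 1 differed 2-fold from U251 control replicates 2 and 3 in 1494 and 1902 genes. U251 control replicates 2 and 3 differed 2-fold from each other in 449 genes. The part of the spread among controls of either line in these differences was not tested.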

How the results depend on the processing

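Counts of called genes against all controls were the least stable. They were 350 higher and 794 lower, 548 higher without a filter, 1 and 0 with U87 libraries alone, 200 and 391 with control replicates 2 and 3 summed (added after seeing the data), and 188 to 1348 and 327 to 2129 with 1 library left out. With U87 alone, 140 were lower against control replicate 1, and 1 and 0 were called in every control set. That drop came from the comparison with all controls, since 110 and 46 genes were then called against both replicate 1 and replicates 2 and 3, beside 125 and 78 in the full fit. At adjusted p alone the counts were 987 and 1304, 1559 and 932, 4099 and 4053, and 408 and 279 in every control set. DESeq2 gave 119 and 83 in every set and RLE scaling 120 and 82. LAMP2 against control replicate 1 failed the threshold with RLE (0.45), without a filter (0.47), with U87 alone (0.46) and with the replicate block (0.41). It met the threshold with DESeq2 (0.45) and with U251 controls divided (0.46). With a library left out it ranged from 0.40 to 0.49, meeting the threshold without labelled replicate 1 and failing it without labelled replicate 2 or 3. Against all controls it turned negative without control replicate 1 (-0.12) or labelled replicate 3 (-0.01), with a range of -0.12 to 0.14. The cause was not tested. Same-numbered control and labelled libraries had deviations correlated at 0.02, -0.09 and 0.12, and differently numbered ones at -0.13 to 0.11. Control replicate 1 differs from the other controls in so many genes that this cannot decide whether the numbers pair samples. With the replicate block the counts were 428 and 841 against all controls, 1218 and 1981 against control replicates 2 and 3 and, added after seeing the data, 600 and 211 against control replicate 1 and 123 and 78 in every set. Of the leading genes' values, 731 kept their direction and side of the threshold across alternatives and 44 lost the threshold, 27 of them with U87 alone. DESeq2 gave no adjusted p for LTF, for CDH11 against all controls, or for KCNK15, KAZN-AS1, CCDC184 and CYSRT1 against control replicate 1.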

Other observations

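Signalling genes not described above were also called in every control set and were picked here after their values were seen. PTN, the heparin-binding growth factor pleiotrophin, was higher by log2 fold changes of 1.32 against all controls, 1.31 against control replicate 1 and 1.35 against control replicates 2 and 3. NDP, the Frizzled ligand norrin, was higher by 1.81, 1.39 and 2.09, BTC, a ligand of the EGF receptor, by 1.19, 1.67 and 1.02, and HAS2, a hyaluronan synthase, by 1.27, 2.05 and 1.02. PIK3CD, a catalytic subunit of phosphoinositide kinase, had log2 fold changes of -1.21, -1.35 and -1.13. KIF7, a kinesin that works in hedgehog signalling at the cilium like EVC2, had -1.10, -1.07 and -1.09. The largest adjusted p of these genes over the 3 control sets was 0.00275 for PTN, 0.0074 for NDP, 0.0109 for BTC, 0.0169 for HAS2, 0.000506 for PIK3CD and 0.0015 for KIF7.

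AL355075.4, which the naming rule left out for its clone-based name, was described after its values were seen. In GENCODE 29 it is annotated as an antisense gene (chromosome 14, 20343048 to 20343685, minus strand) whose span holds RPPH1, the RNA component of RNase P, on the same strand. It had 0, 0.415 and 0.186 CPM in control replicates 1, 2 and 3 and 229, 90.1 and 76.6 CPM in the hairpin-labelled libraries. Its log2 fold change was 8.79 against control replicates 2 and 3 (SE 0.69, adjusted p = 1.11e-07, edgeR), and it was also higher in U251 with the same hairpin (log2 fold change 4.48, adjusted p = 0.000268).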
